A study of Homo sapiens with 9 samples.

Results

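The 9 genes described here encode core proteins of the epithelial tight junction: the claudins CLDN1, CLDN4, CLDN7 and CLDN12, occludin (OCLN), tricellulin (MARVELD2), junctional adhesion molecule A (F11R), ZO-1 (TJP1) and cingulin (CGN). They were taken by gene symbol from a list of names, and all 9 were present among the 33216 genes listed for each of 9 RNA-seq libraries. The libraries came from CAL-27, an established line of human squamous carcinoma cells of the tongue, in 3 groups of 3: Control, cells transfected with siRNA against LEF1 (siLEF1) and cells transfected with siRNA against KDM4A (siKDM4A), all sampled at 48 h. The control treatment is described no further, and the siRNA used within each knockdown is not stated. LEF1 is a DNA-binding transcription factor of the WNT pathway and KDM4A is a histone lysine demethylase, and the design asks what the loss of each transcript does to gene expression.

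Tight junctions seal the space between neighbouring epithelial cells. Claudins form the strands of the junction and set which ions and small solutes pass between the cells, and occludin and tricellulin, which share a MARVEL membrane domain, sit along the strands and at corners where cells meet. ZO-1 and cingulin lie on the inner face of the membrane and tie the strands to actin, whereas junctional adhesion molecules bind across the gap and recruit polarity proteins. In stratified squamous epithelium, CLDN1 is a main barrier claudin.

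Values were FPKM, fragments scaled by exon length and sequencing depth. For most genes the length was that of all annotated exons together, which can exceed that of the transcripts present. Orders and shares between genes therefore depend on the annotation, whereas the same gene is scaled alike in every library. Libraries held 15263188 to 17126665 reads on genes, and every one of the 9 genes had at least 186 reads in every library. How far depth limited their comparison was not tested. KDM4A averaged 16.5 ± 0.0944 FPKM in Control and 2.77 ± 0.0111 in siKDM4A (SD, n = 3 throughout), and LEF1 averaged 1.15 ± 0.14 FPKM in Control and 0.249 ± 0.0204 in siLEF1, so each targeted transcript was low in its own group. KDM4A averaged 14.0 ± 0.25 FPKM in siLEF1, and LEF1 0.88 ± 0.0673 in siKDM4A. LEF1 itself rested on 83 to 104 reads in Control and 21 to 23 in siLEF1. Each pair of groups was tested with limma on log2(FPKM + 0.1), and a gene was called when its adjusted p (Benjamini-Hochberg over all genes tested) was below 0.05 and its fold change was above 1.5. The p-values measure the spread between the libraries of a group, which the methods describe as independent samples. These are bulk libraries, in which fewer cells of a kind and less RNA per cell cannot be told apart. Comparisons with Control share the same 3 Control libraries.

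The 9 genes lie on 6 chromosomes and are all annotated as protein-coding (GENCODE 29, GRCh38). CLDN1 is on chromosome 3 at 190305701-190322475 (minus strand), CLDN4 and CLDN12 on chromosome 7 at 73799542-73832693 and 90383721-90513402 (both plus), and CLDN7 on chromosome 17 at 7259903-7263983 (minus). F11R and CGN are on chromosome 1 at 160995211-161021348 (minus) and 151510510-151538692 (plus), and TJP1 is on chromosome 15 at 29699367-29968865 (minus).

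In Control, the 9 levels spanned from 72.3 ± 2.96 FPKM for CLDN1 to 3.24 ± 0.218 FPKM for OCLN. CLDN1 lay above 97.9% of the 21263 genes that averaged 0.1 FPKM or more in Control, and OCLN above 57.9%. Between them the order of Control means was CLDN4 (31.9), TJP1 (24.1), CLDN12 (20.1), F11R (12.3), CLDN7 (7.09), CGN (6.67) and MARVELD2 (5.30). Neighbours in this order did not overlap between libraries, except CLDN7 and CGN. In siLEF1 only CLDN4 and CLDN12 overlapped among neighbours, and in siKDM4A only MARVELD2 and CLDN7. CLDN1 was the highest of the 9 in all 3 groups. OCLN was the lowest in Control and siLEF1, whereas in siKDM4A it stood seventh, above MARVELD2 and CLDN7.

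**Figure D1:**
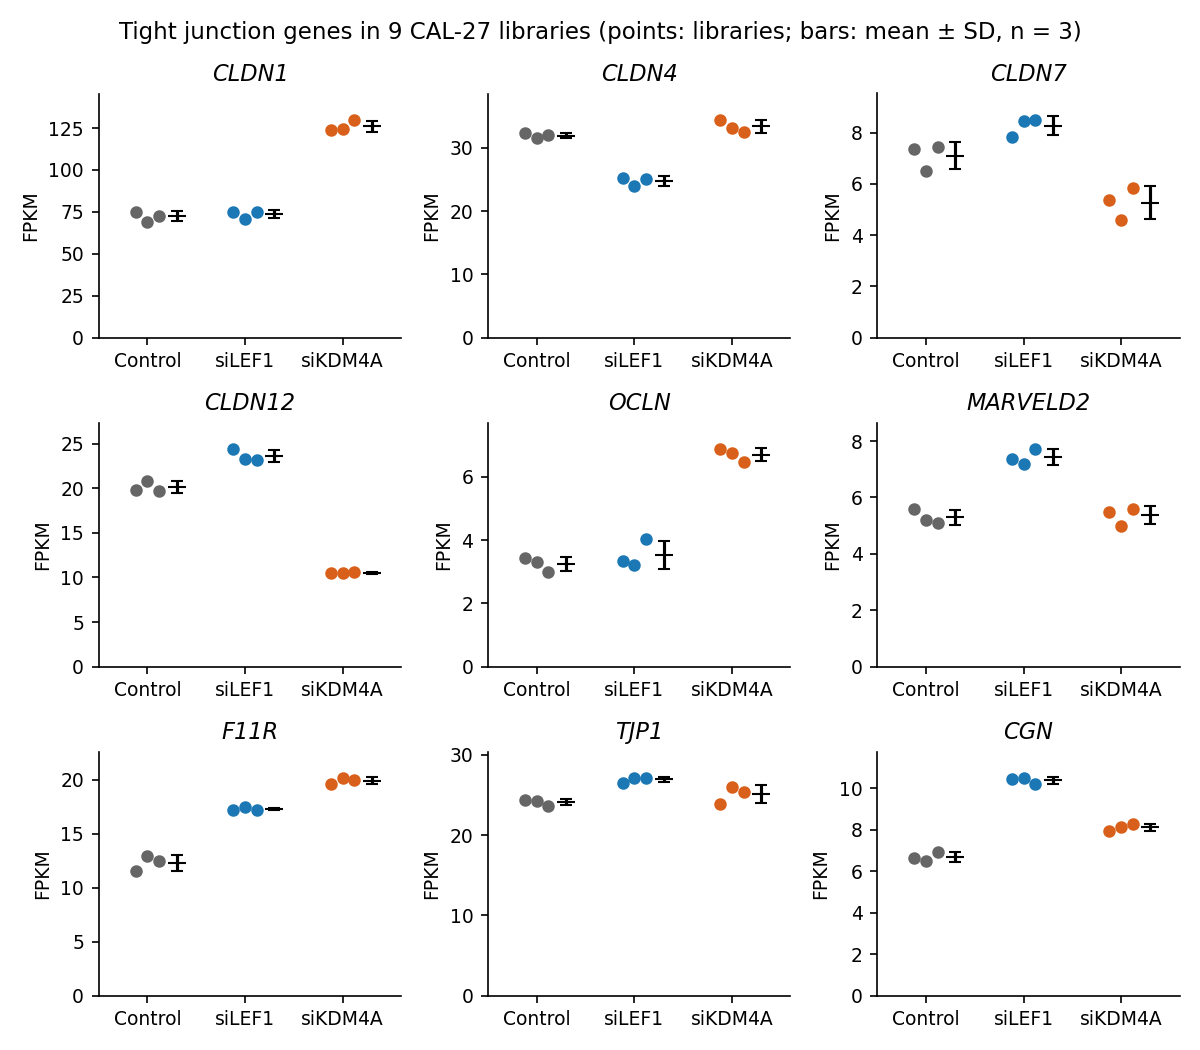
FPKM of the 9 tight junction genes in each library (points) of Control, siLEF1 and siKDM4A, with the mean and SD of each group of 3 beside the points and each vertical axis starting at 0. CLDN1 and OCLN stand higher in siKDM4A than in the other groups, CLDN12 stands lower there, and CGN stands highest in siLEF1.

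After LEF1 knockdown cingulin alone passed both thresholds, and after KDM4A knockdown CLDN1, occludin and junctional adhesion molecule A rose while CLDN12 fell. In siLEF1, 1 of the 9 genes was called against Control: CGN was higher. CLDN4, CLDN7, CLDN12, TJP1, F11R and MARVELD2 passed only the p threshold there. The share of all genes past the p threshold alone was not counted for any comparison, so such genes have no background here. Over all 21831 genes tested in siLEF1 against Control, 11.6% were called, 6.31% higher and 5.31% lower, so 1 of 9 was close to the background. In siKDM4A, 4 of the 9 were called against Control: CLDN1, OCLN and F11R were higher and CLDN12 was lower, beside 12.0% of all 21253 genes tested (4.23% higher and 7.80% lower). The median log2 difference of the 9 genes was 0.22 in siLEF1 and 0.06 in siKDM4A, beside -0.01 and -0.05 over all genes tested. With 4 genes called, the set in siKDM4A moved in both directions, and its median lay near 0.

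CLDN1 had the highest FPKM of the claudins. Its FPKM was 75.2, 69.3 and 72.5 in the Control libraries, 74.9, 70.8 and 74.8 in siLEF1, and 124, 124 and 130.0 in siKDM4A. The siKDM4A libraries all lay above the other 6, whereas siLEF1 and Control overlapped. The log2 difference was 0.80 in siKDM4A against Control (SE 0.0371, limma adjusted p = 2.1e-05), and in siLEF1 it was 0.02, with a 95% interval of -0.07 to 0.12 (adjusted p = 0.69).

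CLDN4, a claudin that restricts sodium passage in several epithelia, was the only one of the 9 with a lower mean in siLEF1 than in Control. It measured 32.3, 31.5 and 32.0 FPKM in Control, 25.2, 23.9 and 25.1 in siLEF1, and 34.4, 33.1 and 32.5 in siKDM4A. All 3 siLEF1 libraries lay below all others. The log2 difference in siLEF1 was -0.37 (SE 0.0302, adjusted p = 0.00018), past the p threshold and short of the 1.5-fold threshold, so the gene was not called. In siKDM4A it was 0.06 (95% interval -0.01 to 0.14, adjusted p = 0.17).

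CLDN7, which occurs also along the lateral membrane outside the junction, gave 7.35, 6.49 and 7.44 FPKM in Control, 7.84, 8.44 and 8.50 in siLEF1, and 5.35, 4.57 and 5.86 in siKDM4A. The 3 groups did not overlap, with siKDM4A lowest and siLEF1 highest. Neither difference from Control passed both thresholds: it was 0.22 in siLEF1 (adjusted p = 0.045) and -0.43 in siKDM4A (adjusted p = 0.018). CLDN7 shared 38 of its 2492 exon bases with ELP5 on the opposite strand and 269 with AC003688.1, and whether reads were counted by strand is not stated.

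CLDN12, an unusual claudin whose C terminus lacks the motif that binds ZO proteins, showed the largest decrease among the 9. Its FPKM was 19.8, 20.9 and 19.7 in Control and 24.4, 23.3 and 23.2 in siLEF1, and all 3 siKDM4A libraries lay far below both groups at 10.5, 10.5 and 10.7. The log2 difference in siKDM4A was -0.93 (SE 0.0356, adjusted p = 1.2e-05), and in siLEF1 it was 0.23 (adjusted p = 0.0031), under the fold threshold. The annotated exons of CLDN12 overlap those of other genes on the same strand, with 371 of 6741 bases shared with AC006153.1, 347 with GTPBP10, 276 with AC002456.2 and 201 with CDK14, and reads in these stretches cannot be assigned with certainty. GTPBP10 averaged 2.88 FPKM in Control and 2.98 in siKDM4A, and CDK14 averaged 0.511 and 3.09, while the other 2 were not analysed here. Their part in the CLDN12 values was not tested.

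OCLN, the first transmembrane protein of the junction to be identified, had the largest difference from Control of the 9 genes. It gave 3.43, 3.30 and 3.00 FPKM in Control, 3.36, 3.22 and 4.05 in siLEF1, and 6.89, 6.76 and 6.47 in siKDM4A. The siKDM4A libraries all lay above the other 6, and siLEF1 overlapped Control. The log2 difference was 1.03 in siKDM4A (SE 0.0678, adjusted p = 7.8e-05) and 0.12 in siLEF1 (95% interval -0.13 to 0.37, adjusted p = 0.44). The annotation holds a copy of the gene, OCLNP1, which was not analysed here, so reads that fit both are uncertain.

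MARVELD2, which seals the corners where 3 cells meet, is the chromosomal neighbour of OCLN. Both genes lie on the plus strand of chromosome 5, MARVELD2 at 69415065-69444330 and OCLN at 69492292-69558104 (GRCh38), 47961 bases apart. MARVELD2 measured 5.59, 5.21 and 5.10 FPKM in Control, 7.37, 7.19 and 7.73 in siLEF1, and 5.49, 5.0 and 5.60 in siKDM4A. Here siLEF1 was the group that stood apart, above all other libraries, and siKDM4A overlapped Control. The log2 difference was 0.48 in siLEF1 (SE 0.0552, adjusted p = 0.00079), short of the fold threshold, and 0.02 in siKDM4A (95% interval -0.14 to 0.18, adjusted p = 0.88). The group that stood apart was thus siLEF1 for MARVELD2 and siKDM4A for its neighbour OCLN.

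F11R, the adhesion molecule that recruits the PAR3 polarity complex to new contacts, was higher than all Control libraries in both knockdowns. It gave 11.5, 12.9 and 12.5 FPKM in Control, 17.2, 17.4 and 17.2 in siLEF1, and 19.6, 20.2 and 19.9 in siKDM4A. The log2 difference was 0.69 in siKDM4A (SE 0.0481, adjusted p = 9.3e-05), which was called, and 0.49 in siLEF1 (SE 0.0469, adjusted p = 0.00035), which passed only the p threshold. F11R shares 1853 of its 5066 exon bases with AL591806.3 on the same strand, and reads there cannot be assigned with certainty. AL591806.3 averaged at most 0.0675 FPKM in any group, a value that itself depends on how shared reads were counted. The part of this overlap in the F11R values was not tested.

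TJP1 and CGN encode the plaque proteins among the 9. ZO-1, the product of TJP1, is the scaffold that binds the claudin tails. TJP1 gave 24.4, 24.2 and 23.7 FPKM in Control, 26.5, 27.1 and 27.2 in siLEF1, and 23.8, 26.0 and 25.4 in siKDM4A. The siLEF1 libraries lay above the others, with a log2 difference of 0.16 (SE 0.0261, adjusted p = 0.0037), and siKDM4A overlapped Control, with 0.06 (95% interval -0.04 to 0.15, adjusted p = 0.32).

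CGN, which binds ZO-1 and holds RhoA activators at the junction, was the one gene called in siLEF1. It measured 6.62, 6.47 and 6.92 FPKM in Control, 10.4, 10.5 and 10.2 in siLEF1, and 7.95, 8.12 and 8.26 in siKDM4A. The groups did not overlap, and siLEF1 was highest. The log2 difference was 0.63 in siLEF1 (SE 0.0421, adjusted p = 7.7e-05) and 0.28 in siKDM4A (SE 0.0459, adjusted p = 0.0038). The siLEF1 value lay just above the 1.5-fold threshold and was not called with a pseudocount of 1 (0.57) or when limma's treat tested against a fold change of 1.5.

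**Figure D2:**
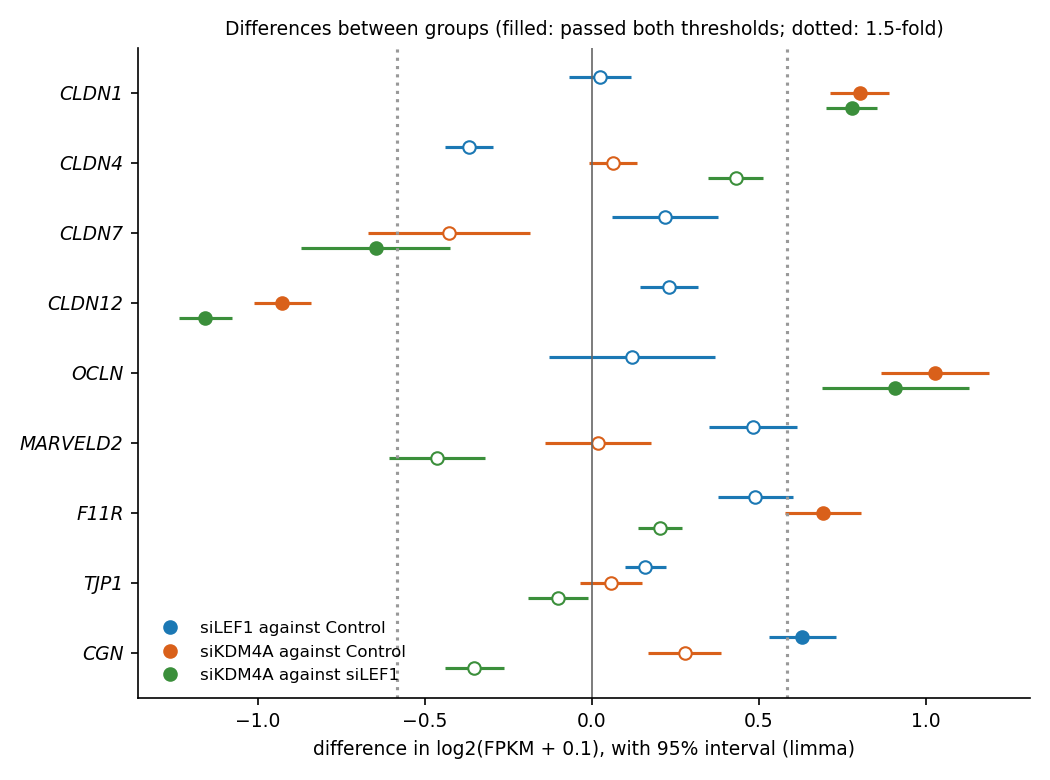
Differences in log2(FPKM + 0.1) for the 9 genes in siLEF1 against Control, siKDM4A against Control and siKDM4A against siLEF1, with 95% intervals from limma. Filled points passed both thresholds and the dotted lines mark a 1.5-fold change. CGN is filled in siLEF1, while CLDN1, OCLN, F11R and CLDN12 are filled in siKDM4A.

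The knockdowns were also compared directly, which tests whether their effects differ without using the Control libraries. CLDN1 was higher in siKDM4A than in siLEF1 by a log2 difference of 0.78 (SE 0.0323, adjusted p = 9e-06) and OCLN by 0.91 (SE 0.0914, adjusted p = 0.00035). CLDN12 was lower by -1.16 (SE 0.0332, adjusted p = 2.7e-06) and CLDN7 by -0.65 (SE 0.0931, adjusted p = 0.0018). These made 4 of the 9 genes called, beside 15.3% of all 21493 genes tested (5.28% higher and 10.0% lower). The CLDN7 call rested on 1 library: without siKDM4A replicate 2 its difference was -0.55, under the fold threshold, and 3 of the 9 remained called.

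The other 5 genes were not called in the direct comparison. CLDN4 differed by 0.43 (adjusted p = 0.00013), MARVELD2 by -0.46 (adjusted p = 0.0011), CGN by -0.35 (adjusted p = 0.00043) and F11R by 0.20 (adjusted p = 0.0013), each past the p threshold but short of 1.5-fold. TJP1 differed by -0.10 (95% interval -0.19 to -0.01, adjusted p = 0.076). Across the 9 libraries, CLDN1 and OCLN were the most alike of the 36 pairs of these genes, with a Euclidean distance of 0.507 between their log2 values after subtraction of each gene's Control mean. CGN and MARVELD2 came next at 0.562, and CLDN12 and OCLN were the least alike at 3.41.

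Among 12585 genes averaging 1 FPKM or more, the pattern closest to that of OCLN over the 9 libraries was that of NCR3LG1, a ligand of the natural killer cell receptor NKp30, at a distance of 0.303. MOK, a serine/threonine kinase gene, followed at 0.336 and the transcript AC124798.1 at 0.388. NCR3LG1 averaged 3.62 FPKM in Control, 4.16 in siLEF1 and 7.2 in siKDM4A. These distances are descriptions, since all genes share the same libraries.

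CLDN1 took a larger share of the summed claudin FPKM in every siKDM4A library than in any other library. Summed over the 21 claudin genes listed, the level was 147 ± 4.41 FPKM in Control, 144 ± 3.07 in siLEF1 and 187 ± 2.52 in siKDM4A. CLDN1 made up 49.2% ± 0.548 of this sum in Control and 51.1% ± 0.553 in siLEF1. In siKDM4A it made up 67.4% ± 1.19, with the lowest siKDM4A library at 66.2% and the highest of the other 6 at 51.5%. CLDN12 made up 13.7% ± 0.811 in Control and 5.64% ± 0.0345 in siKDM4A, and stood at 16.4% ± 0.458 in siLEF1. CLDN4 made up 21.8% ± 0.406 of the sum in Control, 17.2% ± 0.145 in siLEF1 and 17.9% ± 0.631 in siKDM4A. In siKDM4A the lower CLDN4 share went with a CLDN4 level close to Control, since the sum itself was larger. CLDN7 made up 4.83% ± 0.256 in Control, 5.75% ± 0.32 in siLEF1 and 2.81% ± 0.31 in siKDM4A. No test was run on the shares, which depend on each other by construction, and a two-sided exact permutation test of 3 against 3 libraries cannot give a p below 0.1.

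**Figure D3:**
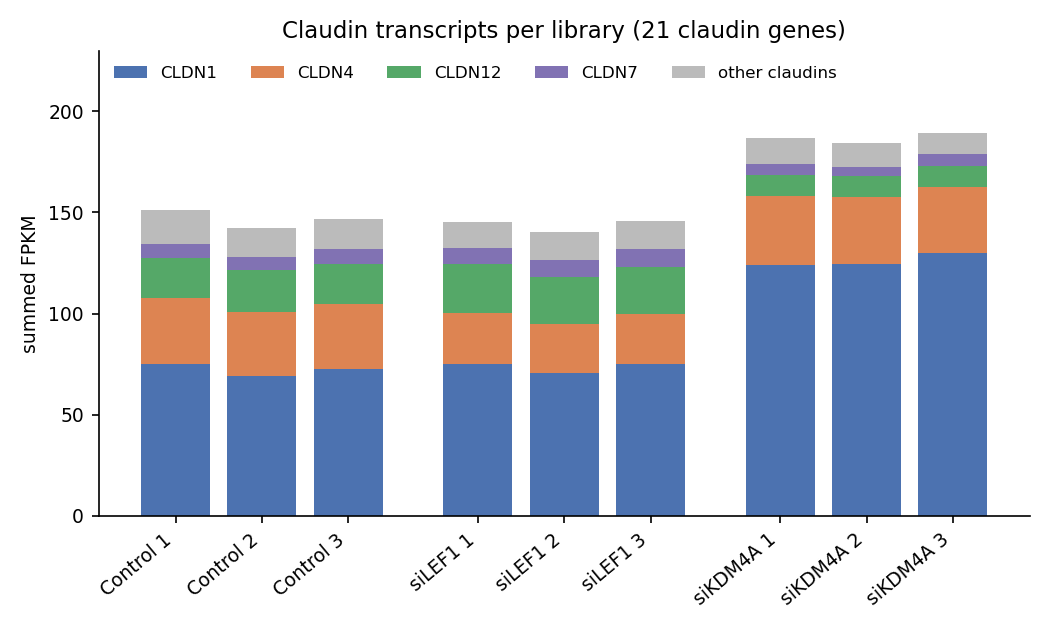
Summed FPKM of the 21 claudin genes in each library, stacked by gene, from 0. The 3 siKDM4A bars reach 184 to 189 FPKM (other bars 140 to 151) through a taller CLDN1 segment, while their CLDN12 segment is shorter.

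Most other claudins were low. Of the 17 other claudins listed, 3 averaged at least 1 FPKM over the 9 libraries, and 8 stayed under 10 reads in every library. CLDN9, the highest of these at 6.14 ± 0.382 FPKM in Control, measured 4.55 ± 0.405 in siLEF1 and 2.56 ± 0.369 in siKDM4A, and was called lower in siKDM4A (log2 difference -1.24, SE 0.114, adjusted p = 0.0003). CLDN23 was lower in siKDM4A as well, with 4.85 ± 0.727 FPKM in Control and 2.89 ± 0.422 (log2 difference -0.73, adjusted p = 0.0071). CLDN15, a claudin that forms cation pores in the intestine, gave 1.65 ± 0.281, 2.31 ± 0.0872 and 2.37 ± 0.178 FPKM in Control, siLEF1 and siKDM4A and was not called. Of the 8 other claudins tested in siKDM4A, 1 was called higher (CLDN16, 23 to 65 reads a library) and 2 lower, beside 4.23% and 7.80% of all genes. Of the 9 tested in siLEF1, 1 was called (CLDN24, higher, 0 to 10 reads a library), beside 11.6% of all genes. CLDN16 and CLDN24 lie below the level set for naming genes and were named after their values were seen. CLDN8, CLDN22 and CLDN25 were not analysed here.

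A further list held other membrane proteins of the junction and relatives of them. Of 12 tested in siLEF1, 3 were called, all higher, beside 6.31% of all genes higher. MARVELD1, a relative of tricellulin, averaged 16.4 ± 1.68 FPKM in Control, 29.6 ± 1.80 in siLEF1 and 20.2 ± 0.553 in siKDM4A (log2 difference in siLEF1 0.85, SE 0.0791, adjusted p = 0.00031). CLMP, an adhesion molecule of the same immunoglobulin family as CXADR, went from 1.17 ± 0.176 to 1.83 ± 0.112 FPKM in siLEF1 (log2 difference 0.62, adjusted p = 0.015). This lay just past the fold threshold (95% interval 0.28 to 0.95), on 75 to 162 reads a library. In siKDM4A CLMP averaged 1.75 ± 0.308 (log2 difference 0.54, adjusted p = 0.057), and the knockdowns compared directly gave -0.07 (adjusted p = 0.74). ILDR2 was the third, at 68 to 212 reads a library. In siKDM4A, 1 of 11 was called, and it was lower (BVES, 27 to 71 reads a library), beside 7.80% of all genes lower. ILDR2 and BVES, too, were named after their values were seen. The median log2 difference of this list was 0.42 in siLEF1 and 0.05 in siKDM4A, beside -0.01 and -0.05 over all genes.

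Among 24 plaque and polarity genes, 2 were called higher and 3 lower in siLEF1, and 2 were called in siKDM4A, both higher. Over all genes 11.6% were called in siLEF1 and 12.0% in siKDM4A, so the siKDM4A count was not above the background. PARD6B and PARD6A encode PAR6, the adaptor that joins PAR3 and atypical protein kinase C. PARD6B gave 6.56, 6.92 and 6.59 FPKM in Control, 2.79, 2.71 and 3.35 in siLEF1, and 9.77, 10.6 and 9.69 in siKDM4A. It was lower in siLEF1 (log2 difference -1.16, SE 0.0889, adjusted p = 0.00014), in siKDM4A it was 0.57 (adjusted p = 0.00027, under the fold threshold), and the direct comparison gave 1.73 (SE 0.0898, adjusted p = 2.1e-05). PARD6A was lower in siLEF1 too, with 3.17 ± 0.197 FPKM in Control and 1.64 ± 0.0965 (log2 difference -0.91, adjusted p = 0.00041), on 36 to 94 reads a library.

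The scaffolds of the list moved in both directions in siLEF1. MPDZ (MUPP1), a PDZ scaffold that binds claudins, was lower at 3.04 ± 0.0332 FPKM against 4.64 ± 0.419 in Control (log2 difference -0.59, adjusted p = 0.0014). This difference lay just past the fold threshold. In siKDM4A MPDZ averaged 3.87 ± 0.36 (log2 difference -0.26, adjusted p = 0.085), and the direct comparison gave 0.33 (adjusted p = 0.017, not called). MAGI3 was higher, at 5.53 ± 0.123 against 3.35 ± 0.211 (log2 difference 0.71, adjusted p = 0.00027). MPP5, which encodes PALS1 of the Crumbs complex, was higher in siKDM4A at 17.1 ± 1.30 against 11.2 ± 0.411 FPKM (log2 difference 0.60, adjusted p = 0.00052). This was just past the fold threshold. In siLEF1 MPP5 averaged 14.2 ± 0.635 (log2 difference 0.34, adjusted p = 0.0018). The knockdowns compared directly gave 0.26 (adjusted p = 0.017), and neither of these was called. The cingulin paralogue CGNL1 was called higher in siLEF1 and WNK4 in siKDM4A, on 9 to 106 and 8 to 53 reads a library, and both were named after their values were seen. CGN and CGNL1 were both called higher in siLEF1. In siKDM4A, where neither was called, their log2 differences were 0.28 and -0.76.

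Of 15 transcription factors known to regulate junction or epithelial genes, 1 was called in siLEF1 and 3 in siKDM4A, each of them lower than in Control. Over all genes 5.31% were lower in siLEF1 and 7.80% in siKDM4A, so the siLEF1 count was close to the background. KLF4, a factor of squamous differentiation, went from 26.0 ± 2.03 FPKM in Control to 20.1 ± 0.765 in siLEF1 and 10.2 ± 0.214 in siKDM4A (log2 difference in siKDM4A -1.34, SE 0.06, adjusted p = 1.9e-05). TFAP2A, an epithelial AP-2 factor, measured 17.1 ± 0.711, 11.6 ± 0.58 and 8.91 ± 0.144 FPKM (siKDM4A -0.93, adjusted p = 2e-05). OVOL1, a repressor of mesenchymal genes, was lower in both knockdowns, at 2.62 ± 0.367 FPKM in Control, 1.30 ± 0.166 in siLEF1 (adjusted p = 0.0025) and 1.49 ± 0.108 in siKDM4A (adjusted p = 0.0038).

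**Figure D4:**
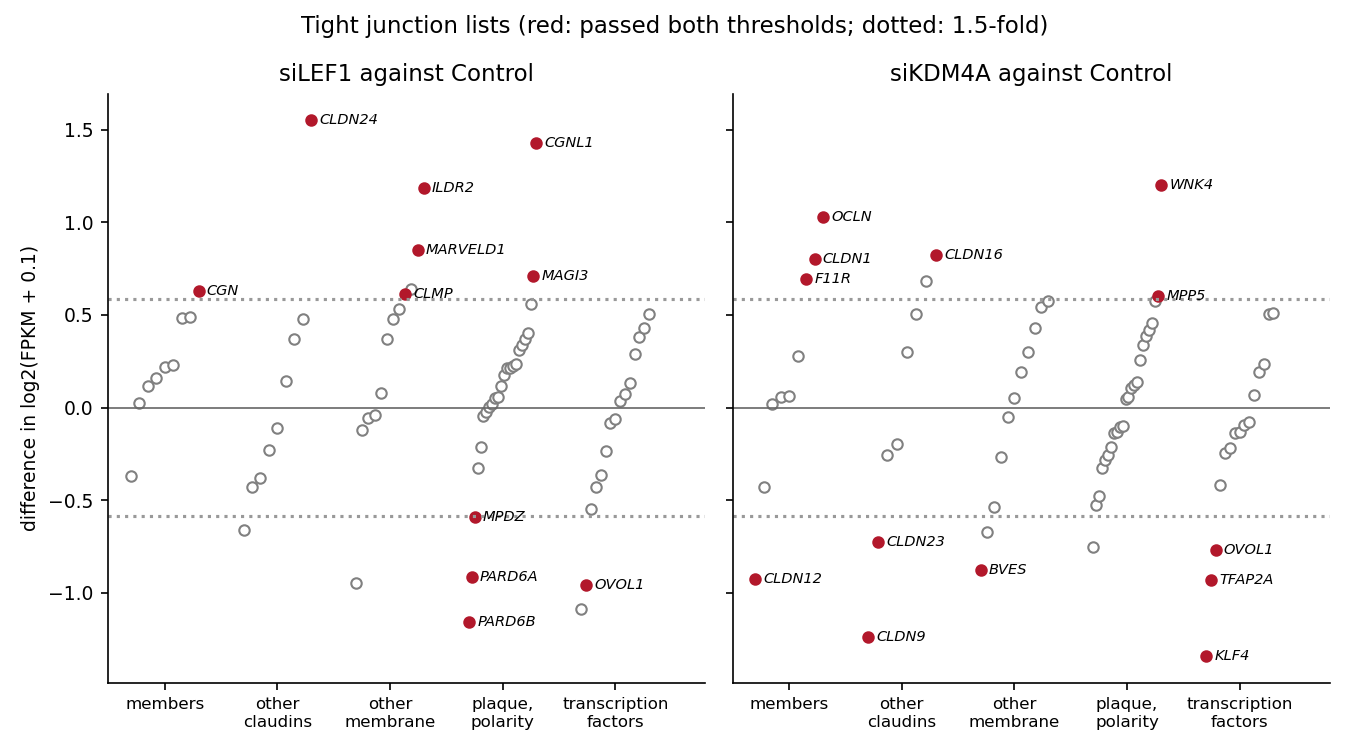
Differences in log2(FPKM + 0.1) against Control for each tested gene of the 9 described here (members) and of 4 further tight junction lists, in siLEF1 (left) and siKDM4A (right). Red, named points passed both thresholds and dotted lines mark 1.5-fold. CGN is red on the left and CLDN1, OCLN, F11R and CLDN12 on the right, and the transcription factors called are all lower.

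In the direct comparison of the knockdowns, 2 of 9 other claudins and 3 of 11 other membrane proteins were called, all lower in siKDM4A. Of 24 plaque and polarity genes, 2 were called higher and 3 lower, and of 15 transcription factors, 1 higher and 2 lower. Over all genes 5.28% were called higher and 10.0% lower in this comparison.

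The labelled cell type was checked against markers. All 9 squamous epithelial markers averaged above 1 FPKM in Control, and their summed level was 647 to 686 FPKM there, 739 to 746 in siLEF1 and 332 to 338 in siKDM4A. In siKDM4A, 6 of the 9 were called lower (KRT5, KRT6A, KRT14, KRT17, TP63 and DSP) and EPCAM higher. KRT5 averaged 232 FPKM in Control and 25.3 in siKDM4A, so the changes of CLDN1, OCLN, F11R and CLDN12 stood beside a large decrease in basal keratins, whose part in them was not tested. CDH1, the adhesion protein of adherens junctions, was not called in either knockdown, with 59.4 FPKM in Control, 83.1 in siLEF1 and 65.1 in siKDM4A. Markers of fibroblasts, endothelium and immune cells summed to at most 6.25, 2.90 and 4.55 FPKM in any library. DCN and PTPRC were at 0 in every Control and siKDM4A library, and averaged 0.00326 and 0.00719 FPKM in siLEF1. Every other marker of these lists that was analysed averaged above 0 in Control, with CD14 (3.23 FPKM) and COL1A1 (2.39) the highest. Of the fibroblast, endothelial and immune markers, COL1A2 (0.17 to 0.744 FPKM), PDGFRB (0.772 to 1.75) and CDH5 (0.811 to 2.02) were called higher in siLEF1. In siKDM4A, CDH5 (2.52) was called higher, and CD14 (3.23 to 1.79) and ITGAM (0.613 to 0.287) lower. Their part in the values of the 9 genes was not tested.

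Promoters are shown because LEF1 acts through a short DNA word: those of CLDN1, OCLN and CLDN12, which were called in siKDM4A, of CGN, which was called in siLEF1, and of CLDN4, which had a lower mean in siLEF1 and held the word. RefSeq windows (GRCh38.p14) from 250 bases before to 50 after a gene start were matched for 8 of the 9 genes (all but F11R), 13 windows in all. The following are given 5' to 3' on the gene's strand, with any searched word in capitals. CLDN1 lies at chr3:190322397-190322696 (minus), OCLN at chr5:69492297-69492596 (plus, the first of 2 windows), CLDN12 at chr7:90403211-90403510 (plus), CLDN4 at chr7:73830746-73831045 (plus) and CGN at chr1:151511137-151511436 (plus).
CLDN1: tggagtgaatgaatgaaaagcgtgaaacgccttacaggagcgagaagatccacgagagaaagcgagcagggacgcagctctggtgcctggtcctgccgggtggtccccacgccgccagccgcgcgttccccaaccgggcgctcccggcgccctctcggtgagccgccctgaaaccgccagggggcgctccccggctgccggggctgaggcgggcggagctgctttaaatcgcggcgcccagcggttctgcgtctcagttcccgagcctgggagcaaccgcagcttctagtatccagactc
OCLN: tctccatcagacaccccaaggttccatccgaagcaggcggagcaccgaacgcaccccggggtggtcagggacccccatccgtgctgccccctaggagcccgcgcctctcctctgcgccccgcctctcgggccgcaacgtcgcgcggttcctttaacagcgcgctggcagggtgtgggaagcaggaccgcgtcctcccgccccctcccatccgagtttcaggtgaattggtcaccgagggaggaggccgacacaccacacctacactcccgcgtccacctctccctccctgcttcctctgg
CLDN12: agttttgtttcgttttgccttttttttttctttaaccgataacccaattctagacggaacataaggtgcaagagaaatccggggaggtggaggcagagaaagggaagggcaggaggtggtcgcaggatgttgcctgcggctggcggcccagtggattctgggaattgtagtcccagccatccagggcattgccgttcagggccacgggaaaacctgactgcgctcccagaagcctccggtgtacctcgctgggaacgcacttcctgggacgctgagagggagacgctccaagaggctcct
CLDN4: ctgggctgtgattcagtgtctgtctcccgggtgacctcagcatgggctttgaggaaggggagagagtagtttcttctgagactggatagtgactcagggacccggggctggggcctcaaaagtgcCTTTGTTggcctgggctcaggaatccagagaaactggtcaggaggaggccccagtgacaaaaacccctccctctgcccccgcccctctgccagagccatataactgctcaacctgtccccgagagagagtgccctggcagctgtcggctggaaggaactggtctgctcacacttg
CGN: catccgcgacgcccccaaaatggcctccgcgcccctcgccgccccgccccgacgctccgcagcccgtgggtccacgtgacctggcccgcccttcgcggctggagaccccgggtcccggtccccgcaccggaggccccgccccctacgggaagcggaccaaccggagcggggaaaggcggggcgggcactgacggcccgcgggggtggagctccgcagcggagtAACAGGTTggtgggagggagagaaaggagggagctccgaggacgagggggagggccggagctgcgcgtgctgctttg

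The LEF1/TCF word, CTTTG followed by 2 bases that are each A or T, was searched on both strands. It occurred in 2 of the 13 windows, and in 13.8% of all 35116 RefSeq windows. The CLDN4 window held CTTTGTT at position -125 from its RefSeq start, and CLDN4 had a lower mean in siLEF1 but was not called. A TJP1 window, not printed above, held the same word at 2 places after its start. TJP1 had a higher mean in siLEF1 than in Control (log2 difference 0.16) and was not called either. The word AACCNGTT, bound by the grainyhead-like factors (GRHL), occurred in 1 of the 13 windows and 1.73% of all. It lay in CGN, on the minus strand and so printed as its reverse complement, at position -27 from the RefSeq start. Base makeup differed too: the CLDN4 window was 59.0% GC with 5 CG dinucleotides, and the CGN window 75.3% with 37, beside medians of 58.7% and 14 over all windows. A matching word is a description of these windows and does not show binding, and its part in the levels was not tested.

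The siRNAs listed for the knockdowns are shown because an siRNA can also lower transcripts that match its seed (bases 2 to 8, in capitals). For each target 2 siRNAs are listed, and their antisense strands, which pair with the target, are given first, followed by the sense strands with matches in these genes.
si-LEF1-01 antisense: uUCUUACCauaauugucuc
si-LEF1-02 antisense: uUCACGUGcauuaggucac
si-KDM4A-01 antisense: uUGCUUAAaggcugacggc
si-KDM4A-02 antisense: uUGUACUGaguaaagaggc
si-LEF1-01 sense: gAGACAAUuaugguaagaa
si-KDM4A-02 sense: gCCUCUUUacucaguacaa

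In annotated 3' UTRs (GENCODE 29), 0 of the 9 genes held a site for any of the 4 antisense seeds. The sites of these seeds occurred in 4.28% to 15.4% of 10474 genes, those averaging 1 FPKM or more with an annotated 3' UTR. The sense seed of si-LEF1-01 had a site in CLDN12, OCLN and F11R (16.0% of the 10474 genes). None of these had a lower mean in siLEF1 than in Control. The sense seed of si-KDM4A-02 had a site in CLDN7 and OCLN (18.0% of the 10474 genes), of which CLDN7 had a lower and OCLN a higher level in siKDM4A. The sites, with the seed match in capitals, follow. CLDN12, which was lower in siKDM4A, held no site for any strand of the siRNAs against KDM4A. Only seed matches in annotated 3' UTRs were searched, and the siRNA used is not stated. The part of such matches in the levels was not tested.
CLDN12, si-LEF1-01 sense: gtttccttATTGTCTtttttctt
OCLN, si-LEF1-01 sense: cgtttcttATTGTCTacatttat
F11R, si-LEF1-01 sense: ggttccttATTGTCTaggccact
CLDN7, si-KDM4A-02 sense: agagacaaAAAGAGGgagagtgt
OCLN, si-KDM4A-02 sense: aatggttaAAAGAGGtttttctt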

How the data were processed

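Poly(A) RNA of CAL-27 cells was sequenced from stranded libraries. For each library the authors deposited a table of FPKM, and these values were used as they stand. The submitters' processing notes name Trimmomatic, HISAT2, Cufflinks, HTSeq and hg38. Roles, versions and annotation are not given in the sources used here.

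Exon lengths of GENCODE 29 turned FPKM into whole reads (tolerance 0.02) for 31571 of the 33216 genes. The length annotated for MARVELD2 (5366) did not, and a length of 4898 was used for its reads. Tests used R 4.3.3 with limma 3.58.1 (lmFit, eBayes with trend) on log2(FPKM + 0.1), over genes averaging 0.1 FPKM or more across the 6 libraries compared, and were tested on simulated data. The pseudocount understates changes of low genes. Alternatives were other pseudocounts, filters, scalings, fits and tests, a replicate block, and leaving out each library. Other tables, promoter searches and plots used Python 3.11.15, pandas 2.3.3 and matplotlib 3.10.9.

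The genes and lists were chosen with earlier results of these data known. From each list, the text names genes called against Control that averaged 1 FPKM or more, at most 6 a list, and every other claudin at that level. Replicate pairs differed beyond sampling noise, so none was counted as 1 library.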

Additional observations from a re-analysis of the deposited data

Results flagged for a closer look

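For 4 of the 9 genes the direct limma comparison of siKDM4A with siLEF1 passed both thresholds, beside 15.3% of all 21493 genes tested. The log2 difference of siKDM4A minus siLEF1 was 0.78 for CLDN1 (adjusted p = 9e-06) and 0.91 for OCLN (adjusted p = 0.00035), and every siKDM4A library lay above every siLEF1 library. It was -1.16 for CLDN12 (adjusted p = 2.7e-06) and -0.65 for CLDN7 (adjusted p = 0.0018), with every siKDM4A library below every siLEF1 library. The CLDN7 call was lost without siKDM4A replicate 2. CLDN4, CGN, MARVELD2 and F11R passed the p threshold but not the fold threshold. Groups of 3 libraries were not searched for outlying libraries.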

How the results depend on the processing

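Some settings moved counts or calls. With a pseudocount of 1, genes called numbered 1405 in siLEF1 (0 of the 9 tight junction genes), 1462 in siKDM4A and 1841 in the direct comparison, and CGN in siLEF1 (0.57) and CLDN7 in the direct comparison (-0.57) were no longer called. With limma's treat against a fold change of 1.5, the counts were 566 (0 of the 9), 586 (3 of the 9, without F11R) and 925 (2 of the 9, without CLDN7 and OCLN). These tests ask more of each gene by construction. Leaving out each library in turn gave 2239 to 2347 genes in siLEF1, 2278 to 2430 in siKDM4A and 2905 to 3077 in the direct comparison, with 1, 4 and 3 to 4 of the 9 called. The loss was CLDN7 without siKDM4A replicate 2 (-0.55). Uncalled values near 0 changed sign: CLDN1 in siLEF1, from -0.0069 without Control replicate 2 to 0.052, and MARVELD2 in siKDM4A, from -0.014 without siKDM4A replicate 3 and -0.0093 without Control replicate 3 to 0.066. The replicate numbers did not pair the libraries (correlations of same-numbered libraries from -0.040 to 0.043), and a replicate block gave 2245, 2305 and 2953 genes, with 1, 4 and 4 of the 9 called. Of 328 values of single genes under the other settings, 322 kept their direction and side of the thresholds, and 6 kept only their direction.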
